A study of Mus musculus with 6 samples.

Results

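The genes described here are 39 genes of sterol and fatty acid metabolism, taken by symbol from a table of 35275 gene identifiers measured in mouse regulatory T (Treg) cells. They were chosen by function, with earlier results of these data known. It holds 6 enzymes of the mevalonate steps, 9 enzymes that lead from farnesyl diphosphate to cholesterol, 5 regulators and carriers of sterols, 10 genes of fatty acid synthesis, 3 genes of sterol efflux and uptake, and 6 genes of fatty acid beta-oxidation. Each of the 39 symbols matched 1 identifier. Of them 38 were tested, and these stood at 1 FPKM (fragments normalised to gene length and sequencing depth) or more in all 6 libraries. The exception was Fads2.

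RNA was sequenced from 3 samples of Rcor1-deleted Treg cells (Rcor1fl/flFoxp3YFPcre) and from 3 control samples (Foxp3YFPcre). All mice were males of 6 to 8 weeks. Mice of both groups carry the Cre recombinase with yellow fluorescent protein (YFP) under Foxp3, so floxed Rcor1 alone separates them by label. YFP+ cells were sorted after CD4+ column enrichment, and the design text calls the 3 replicates of a group biologically independent. Rcor1 encodes CoREST1, a scaffold for histone-modifying enzymes that repress transcription.

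Animal cells build cholesterol from acetyl-CoA through mevalonate, squalene and lanosterol. When membrane cholesterol falls, Scap carries the Srebf proteins out of the endoplasmic reticulum, and their released fragments switch on synthesis genes, whereas Insig proteins hold Scap back. When oxysterols accumulate, liver X receptors switch on efflux pumps and Mylip. T cells draw on sterol and fatty acid synthesis when they grow and divide, and Treg cells are known to use fatty acid oxidation as well as mevalonate products.

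The libraries held 18538581 to 22349455 fragments, as recovered from the FPKM values. Rcor1 itself (chromosome 12, 111039351 to 111115901, GRCm38) stood at 12.5, 13.0 and 14.2 FPKM in deletion libraries 1, 2 and 3, and at 16.1, 16.1 and 15.2 FPKM in control libraries 1, 2 and 3. The groups did not overlap, but the difference missed the threshold (log2 fold change -0.24, SE 0.066, adjusted p = 0.0562). The sources used here do not say which part of the gene is floxed, so a value over the whole gene checks the labels only weakly. The Treg markers Foxp3, Il2ra, Ctla4, Ikzf2, Tnfrsf18, Cd4, Cd3e and Cd3d were high in all libraries, with a summed level of 1335 to 1347 FPKM in deletion and 1267 to 1448 FPKM in control libraries. Of these 8 markers 1 rose and 0 fell (12.5%, against 12.0% of all tested genes). It was Ikzf2, at 62.5 FPKM on average in deletion and 47.5 FPKM in control libraries (log2 fold change 0.40, limma adjusted p = 0.0463). Whether this call near the threshold holds under other settings was not examined. Summed over 12 fat cell markers the level was 1.68 to 3.78 FPKM in deletion libraries and 54.6 to 66.0 FPKM in control libraries. Of these markers 8 could be tested and 8 fell, against 3.08% of all tested genes that fell. All 8 reached 1 FPKM in every control library, and of them only Fabp4 did so in a deletion library. The limit for testing thus let in markers that were high in controls, so this count is no independent result. Cfd, Cidec and Lep were at 0 in all deletion libraries. Pparg alone ran the other way, at 0.988 to 1.68 FPKM in deletion and 0.623 to 0.900 FPKM in control libraries, and was under that limit. Summed over 10 B cell markers the level was 57.3 to 68.2 FPKM in deletion and 32.4 to 51.4 FPKM in control libraries. Of 7 tested B cell markers 2 rose, Cd22 and Fcrl1 (28.6%, against 8.95% of all tested genes). Among the 10, Fcer2a alone had a lower mean in deletion (0.20 FPKM) than in control libraries (0.464 FPKM). Pax5 averaged 1.09 FPKM in deletion and 1.06 FPKM in control libraries, and both were under the limit for testing. Summed over 10 myeloid markers the level varied within both groups, at 9.88 to 381 FPKM in deletion and 16.3 to 202 FPKM in control libraries. Of 7 tested myeloid markers 0 were called by limma, and 0 had an unadjusted p under 0.05. In bulk samples, fewer cells of a type and less RNA per cell cannot be told apart.

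Rcor1-deleted Treg cells carried transcripts of the 38 tested members at levels close to control cells. Of 38 tested members 1 rose (Mylip) and 0 fell at an adjusted p under 0.05, which is 2.63% of them, against 12.0% of all 11575 tested genes (8.95% that rose and 3.08% that fell). The test was limma on log2(FPKM + 1), with p-values adjusted over all tested genes by the Benjamini-Hochberg method. Of the 1392 genes called in all, 1036 rose (74.4%). This share was 46.9% of 1191 calls with median-ratio scaling and 49.1% of 1431 calls with limma voom on recovered fragments, which called 10.3% and 12.4% of all tested genes. At an unadjusted p under 0.05 there were 9 members (23.7%), against 32.6% of all tested genes. The count of 1 depended on the settings. It was 0 without control library 1, control library 3, or deletion library 1, 2 or 3, and it was 2 without control library 2. Both scalings that align the medians of the libraries gave 0, while voom gave 1, which was Hadhb and not Mylip.

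Changes were small in size as well as rarely called. All 38 tested members lay between -0.4 and 0.4 on the log2 scale, a range that held 88.2% of all tested genes, and 34 of them (89.5%) lay between -0.2 and 0.2, against 63.4% of all tested genes. The 95% interval of the change stayed within 1.5-fold in either direction for 37 members (97.4%), the exception being Mvk, against 79.6% of all tested genes. A level of 5 FPKM in 3 or more libraries was reached by 33 of 38 tested members and by 8405 of 11575 tested genes. Neither these shares nor the spread between replicates were compared among genes of matched level. Of the tested members 27 (71.1%) had a log2 fold change above 0, against 65.3% of all tested genes, but this count was 18 with median-ratio scaling, 18 with voom and 19 with quantile normalization. The median log2 fold change of the members was 0.07 and that of all tested genes 0.08. With median-ratio scaling both medians moved to about zero (-0.0032 for the members and 0.0020 for all genes). Between replicates the median coefficient of variation of the members was 6.39% in deletion and 5.58% in control libraries. Over all tested genes it was 6.52% in deletion and 8.56% in control libraries, so the members were close to other genes in the deletion group and lower in the control group.

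**Figure D1:**
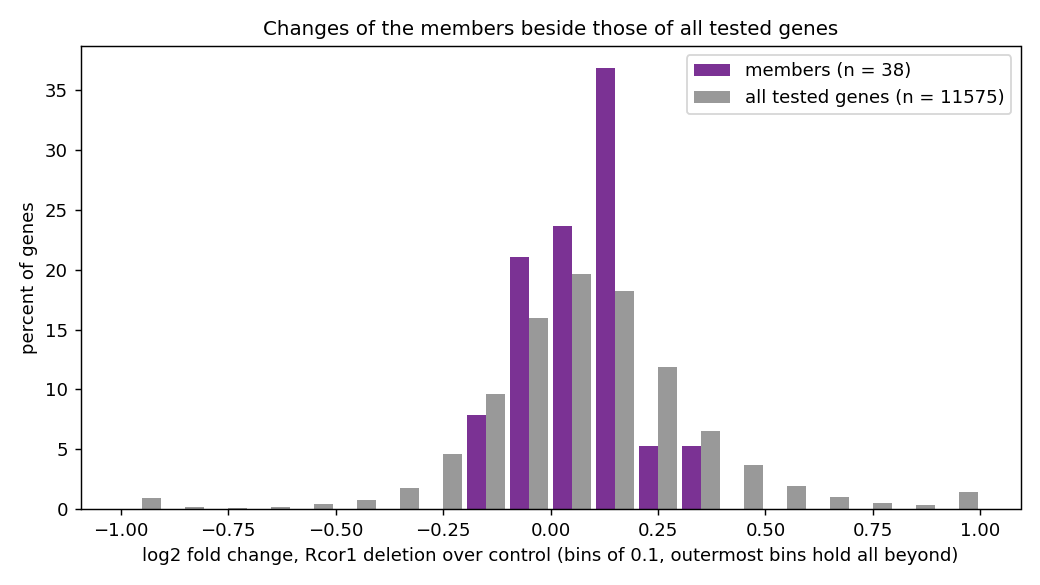
Share of genes (percent, y axis) by log2 fold change of Rcor1 deletion over control (x axis, bins of 0.1), for the 38 tested members and for all 11575 tested genes. The members stay between -0.4 and 0.4, whereas all tested genes also fill the bins further out.

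**Figure D2:**
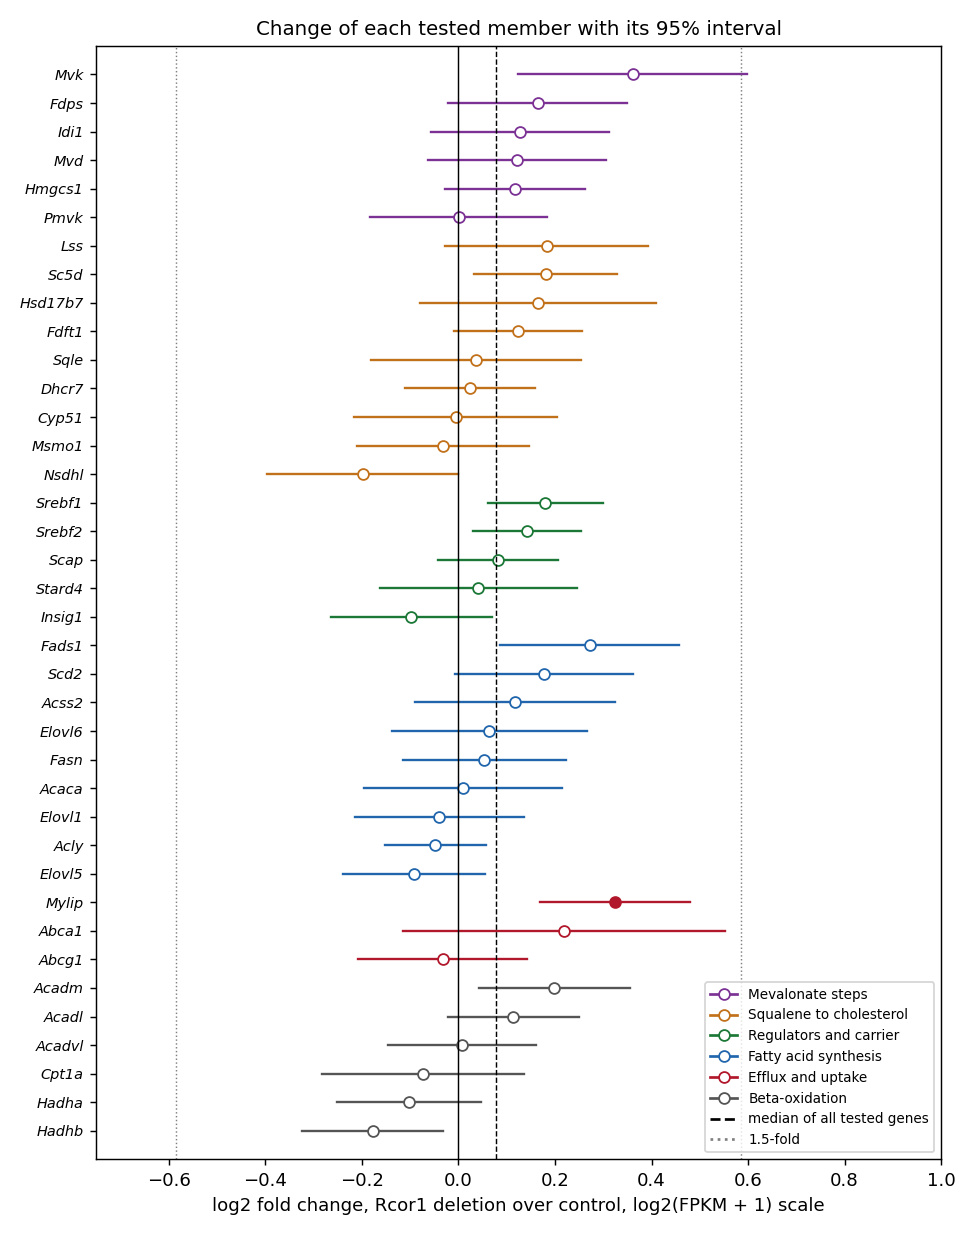
Log2 fold change of Rcor1 deletion over control for each tested member (points), with its 95% interval from limma (lines), grouped by role and sorted within a role. Mylip is the only filled point (adjusted p = 0.0261), and the interval of Mvk is the only one that crosses the dotted 1.5-fold line.

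Mylip was the member that rose. It encodes the ubiquitin ligase also called Idol, which marks low density lipoprotein receptors for degradation and is a target of liver X receptors. The gene (chromosome 13, 45389742 to 45412022, plus strand, GRCm38) stood at 22.3, 19.8 and 20.5 FPKM in deletion libraries 1, 2 and 3, and at 16.5, 17.2 and 15.8 FPKM in control libraries 1, 2 and 3. Every deletion library was above every control library, and 895 to 1528 fragments lay behind each value. Mylip averaged 20.9 ± 1.3 FPKM in deletion and 16.5 ± 0.74 FPKM in control libraries (SD, n = 3 each), a log2 fold change of 0.32 (SE 0.066, limma adjusted p = 0.0261), or 1.25-fold with a 95% interval of 1.12 to 1.40. Leaving out control library 2 kept the call (adjusted p = 0.0257). Leaving out any other library ended it, with adjusted p-values up to 0.0885. Scaling by median ratios ended it as well (adjusted p = 0.0614, with a log2 fold change of 0.24), as did quantile normalization (0.24, adjusted p = 0.0728) and voom (0.26, adjusted p = 0.0516), so the direction held and the call did not. The summed level of 10 B cell markers was higher in deletion libraries too, at 57.3 to 68.2 FPKM against 32.4 to 51.4 FPKM in control libraries, and its part in the rise of Mylip was not tested.

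The efflux pumps that share liver X receptor control with Mylip did not pass the test. Abca1, which loads cholesterol onto apolipoproteins, stood at 2.36, 2.51 and 3.37 FPKM in deletion libraries and at 2.65, 2.17 and 1.82 FPKM in control libraries. These groups overlapped (log2 fold change 0.22, SE 0.14, limma adjusted p = 0.321). Its interval reached from -0.12 to 0.55 and was the widest of the 38 tested members. Abcg1, which exports sterols to lipoprotein particles, stood at 32.3, 32.2 and 35.9 FPKM in deletion libraries and at 36.4, 34.8 and 31.5 FPKM in control libraries, again with overlap (log2 fold change -0.03, SE 0.074, adjusted p = 0.787). Abcg1 was the more abundant pump per length in every library, at 10.7 to 13.7 times the level of Abca1 in deletion and 13.8 to 17.3 times in control libraries.

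Promoter sequence was searched for sterol regulatory elements and a liver X receptor element, and also for CCAAT and GC boxes. RefSeq promoter windows (250 bases before to 50 after the start, build GRCm38.p6) were matched for 32 of the 39 members. Some genes have more than 1 start, and the 32 members had 39 windows between them. Fdps, Sqle, Fdft1, Stard4, Scd2, Abcg1 and Fads1 were not matched. Motifs were searched on both strands. The loose form of the sterol regulatory element, TCACNCCAC, was found in 1 of 39 member windows, that of Hmgcs1, and in 1.24% of all 32851 windows. Its strict form, which has A before these letters and C at the free position and so lies within the loose form, was found in 0 of 39 member windows and in 0.0913% of all windows. The liver X receptor element, a direct repeat of AGGTCA with 4 free bases between, was found in 0 member windows and in 0.0152% of all windows. The strict form and this repeat are too rare among all windows for 0 matches in 39 to set the members apart. The CCAAT box, CCAAT or ATTGG on the other strand, stood in 23 of these 39 windows (59.0%), from 22 of the 32 members, and in 37.4% of all windows. The GC box GGGCGG stood in 29 of these windows (74.4%), from 25 members, and in 35.7% of all windows. All windows were counted whether or not their gene was expressed in these cells, and windows of expressed genes alone were not compared. The higher shares among members are thus not shown to be particular to them. A match is a description of letters and not a binding site, and the windows leave out more distant elements. The window of Mylip is shown as that of the member that rose, and the window of Hmgcs1 as the one with a loose element. Mylip lies at chr13:45389492-45389791 and Hmgcs1 at chr13:119690101-119690400, both on the plus strand, and capitals mark CCAAT boxes and, in Hmgcs1, also the loose element, which starts 137 bases before the RefSeq start.
Mylip: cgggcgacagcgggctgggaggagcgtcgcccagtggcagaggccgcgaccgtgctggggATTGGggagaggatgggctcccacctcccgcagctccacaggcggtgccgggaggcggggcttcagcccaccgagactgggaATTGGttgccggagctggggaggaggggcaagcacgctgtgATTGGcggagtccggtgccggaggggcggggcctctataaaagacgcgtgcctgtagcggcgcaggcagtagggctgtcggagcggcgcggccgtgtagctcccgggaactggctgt
Hmgcs1: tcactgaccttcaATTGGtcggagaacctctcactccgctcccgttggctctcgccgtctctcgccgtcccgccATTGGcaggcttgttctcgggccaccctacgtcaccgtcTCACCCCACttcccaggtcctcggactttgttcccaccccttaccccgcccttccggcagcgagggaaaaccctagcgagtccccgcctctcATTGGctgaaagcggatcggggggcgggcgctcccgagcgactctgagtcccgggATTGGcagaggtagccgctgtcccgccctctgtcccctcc
Mylip thus holds 3 CCAAT boxes and Hmgcs1 holds 4, with a GC content of 71.0% and 65.7%.

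Among the enzymes of the mevalonate steps, 0 of 6 passed the test in either direction with limma or voom (1 at an unadjusted p under 0.05). All 6 had a log2 fold change at or above 0, with a median of 0.12, and median-ratio scaling put Pmvk at -0.080. Mvk, mevalonate kinase, came closest. It stood at 5.87, 6.68 and 7.78 FPKM in deletion libraries and at 5.03, 4.84 and 5.21 FPKM in control libraries, with no overlap (log2 fold change 0.36, SE 0.10, limma adjusted p = 0.0586). The spread among its deletion libraries, with an SD of 0.963 FPKM, was wider than among its control libraries, with an SD of 0.188 FPKM. Fdps, which makes farnesyl diphosphate, stood at 29.2, 33.9 and 31.3 FPKM in deletion and at 27.7, 26.1 and 30.2 FPKM in control libraries, which overlap (log2 fold change 0.16, SE 0.078, adjusted p = 0.194). Hmgcs1, the synthase that makes HMG-CoA, stood at 13.9, 14.2 and 14.2 FPKM in deletion and at 13.7, 12.2 and 12.9 FPKM in control libraries (log2 fold change 0.12, SE 0.061, adjusted p = 0.228). The Hmgcs1 groups did not overlap, yet the gap between the nearest libraries was small beside the spread of the controls. The remaining enzymes were the phosphomevalonate kinase Pmvk (12.3 and 12.2 FPKM on average in deletion and control libraries), the decarboxylase Mvd (21.3 and 19.5 FPKM) and the isomerase Idi1 (4.49 and 4.02 FPKM), with adjusted p-values of 0.294 to 1.00.

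The 9 enzymes that lead on to cholesterol likewise gave 0 calls with limma or voom (2 at an unadjusted p under 0.05), and they lay on both sides of zero. Sc5d, a sterol desaturase late in the pathway, stood at 20.2, 18.6 and 17.8 FPKM in deletion and at 16.3, 16.8 and 16.4 FPKM in control libraries. These groups did not overlap (log2 fold change 0.18, SE 0.063, limma adjusted p = 0.0995). Nsdhl, a dehydrogenase of the complex that removes methyl groups from sterols, ran the other way, at 8.52, 9.08 and 8.89 FPKM in deletion and 10.6, 9.11 and 11.2 FPKM in control libraries (log2 fold change -0.20, SE 0.083, adjusted p = 0.152). Without control library 2, the lowest of its controls, Nsdhl fell (log2 fold change -0.28, adjusted p = 0.0421). Fdft1, squalene synthase and the first committed step toward sterols, stood at 10.01, 10.4 and 10.1 FPKM in deletion and 9.06, 9.28 and 9.41 FPKM in control libraries (log2 fold change 0.12, SE 0.056, adjusted p = 0.178). Like those of several further members, annotated exons of Fdft1 overlap those of a gene on the opposite strand, here Ctsb. Reads of such a pair could be mixed if the counting ignored strand. The other 6 were the epoxidase Sqle, the lanosterol synthase Lss, the lanosterol demethylase Cyp51, the methylsterol oxidase Msmo1, the ketoreductase Hsd17b7 and the reductase Dhcr7 of the last step. Their adjusted p-values lay between 0.203 and 0.969. In order of average level in deletion libraries, Hsd17b7 was lowest (2.16 FPKM, and 1.82 FPKM in control), followed by Lss (3.14 FPKM, and 2.65 FPKM in control), and Dhcr7 was highest of these 6 (15.8 FPKM, and 15.5 FPKM in control).

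None of the 5 regulators and carriers passed the test with limma or voom, while Srebf1 and Srebf2 had unadjusted p-values under 0.05. Srebf2, the main driver of sterol synthesis genes, stood at 67.5, 67.0 and 71.1 FPKM in deletion and at 62.0, 61.3 and 62.5 FPKM in control libraries (log2 fold change 0.14, SE 0.048, limma adjusted p = 0.0916). Srebf1, which drives fatty acid synthesis genes in one of its forms, stood at 33.1, 34.0 and 35.3 FPKM in deletion and at 30.2, 29.4 and 30.4 FPKM in control libraries (log2 fold change 0.18, SE 0.050, adjusted p = 0.0599). For both genes each deletion library was above each control library in FPKM, and the values do not separate the forms of Srebf1. Median-ratio scaling reduced the log2 fold changes to 0.057 for Srebf2 and 0.096 for Srebf1 (limma adjusted p = 0.479 and 0.264). Their ratio stayed near constant, with 1.97 to 2.04 times as much Srebf2 as Srebf1 in deletion and 2.05 to 2.09 times in control libraries. Scap, the escort of both, stood at 25.8, 27.1 and 26.2 FPKM in deletion and at 24.6, 24.2 and 25.8 FPKM in control libraries (log2 fold change 0.08, SE 0.053, adjusted p = 0.321). This is the size of the median change of all tested genes, and median-ratio scaling left it at -0.0021. Insig1, which retains Scap, averaged 15.7 ± 1.0 FPKM in deletion and 16.9 ± 0.88 FPKM in control libraries (SD, n = 3 each), and the sterol carrier Stard4 averaged 9.35 ± 0.91 and 9.05 ± 0.60 FPKM in deletion and control libraries, with adjusted p-values of 0.370 and 0.768.

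**Figure D3:**
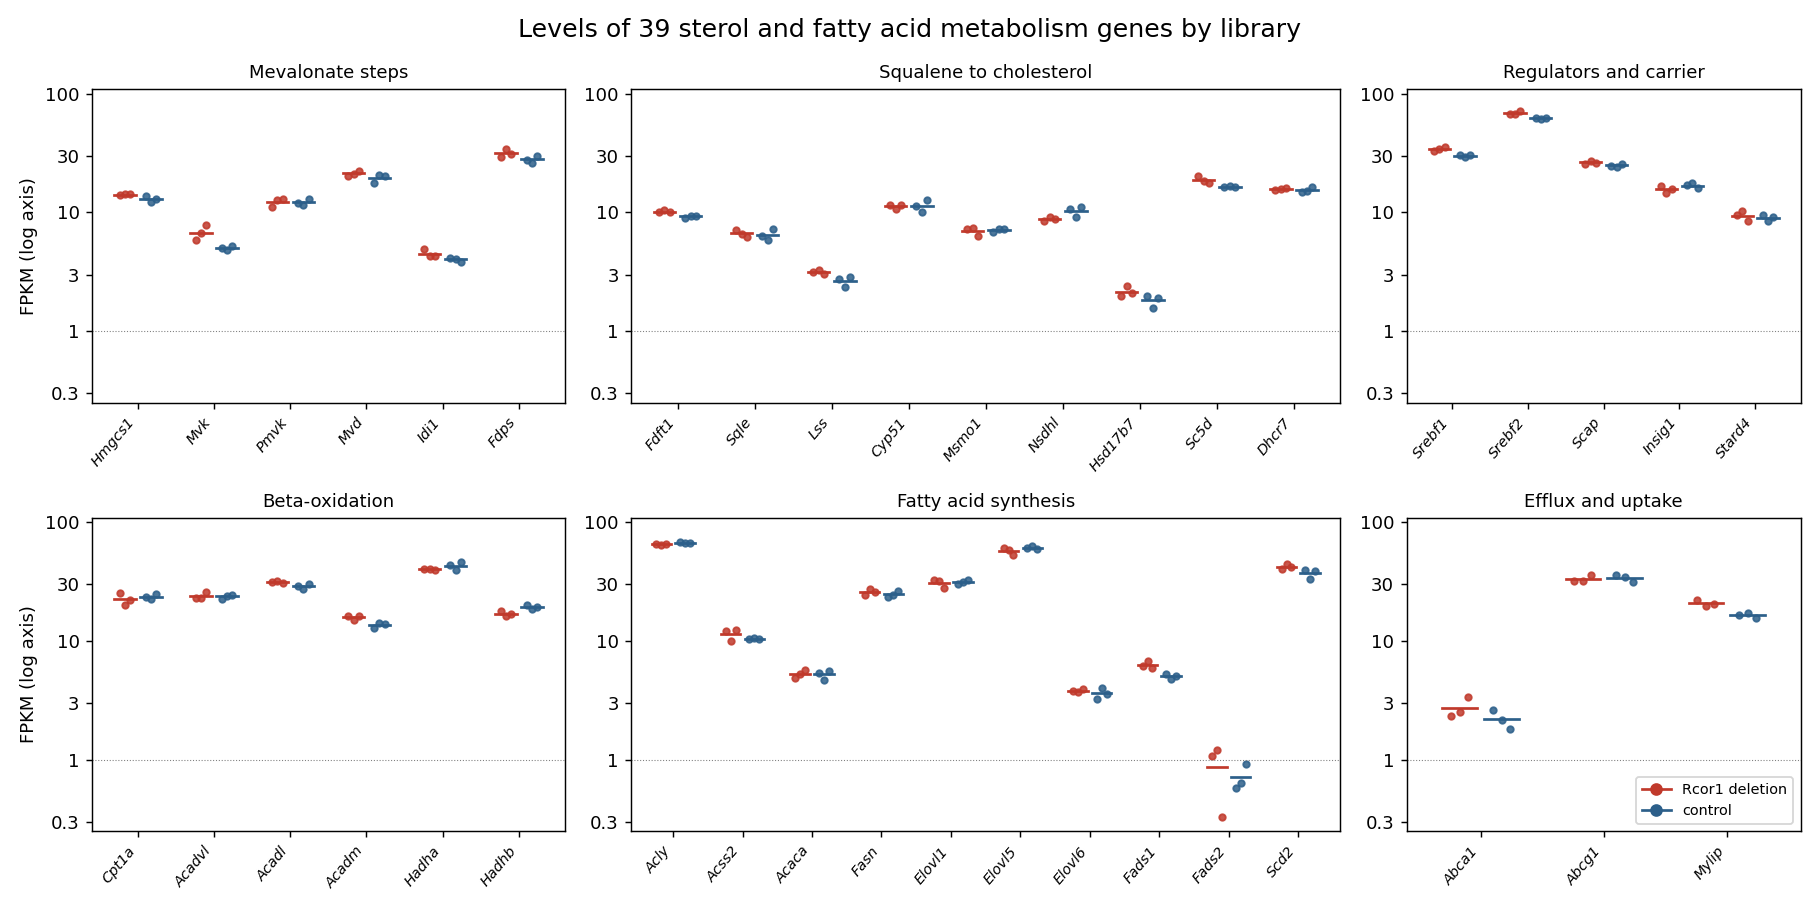
FPKM of all 39 members (log axis) in each library, in panels by role, with deletion libraries in red on the left and control libraries in blue on the right of each gene, and a bar at each group mean. Srebf2, Acly and Elovl5 are the highest, Fads2 lies around the dotted line at 1 FPKM, and Mylip averages 20.9 FPKM in deletion and 16.5 FPKM in control libraries.

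Fatty acid synthesis genes gave 0 calls among 9 tested with limma or voom (1 at an unadjusted p under 0.05). Fads1, a desaturase of polyunsaturated fatty acids, had the smallest p of the group and stood at 6.20, 6.84 and 5.92 FPKM in deletion and at 5.33, 4.76 and 5.09 FPKM in control libraries. The groups did not overlap, and the difference missed the threshold (log2 fold change 0.27, SE 0.079, limma adjusted p = 0.0645). Scd2, the stearoyl-CoA desaturase that prevails in these cells, stood at 40.6, 44.6 and 41.8 FPKM in deletion and at 39.5, 33.5 and 39.1 FPKM in control libraries (log2 fold change 0.18, SE 0.078, adjusted p = 0.164). Scd2 belongs to a family of similar genes, among which reads could be divided differently by another counter. Elovl5, an elongase of polyunsaturated chains, stood at 60.8, 58.2 and 53.4 FPKM in deletion and at 61.0, 63.3 and 59.5 FPKM in control libraries, which overlap (log2 fold change -0.09, SE 0.062, adjusted p = 0.343). Fads2, the partner desaturase of Fads1, stood at 1.07, 1.21 and 0.328 FPKM in deletion and at 0.579, 0.633 and 0.930 FPKM in control libraries. With 10 to 37 fragments per library behind these values, Fads2 was under the limit for testing.

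The genes of the main chain of fatty acid synthesis, from citrate to palmitate, did not pass the test. Acly, which splits citrate into acetyl-CoA, averaged 65.4 ± 0.96 FPKM in deletion and 67.6 ± 1.1 FPKM in control libraries (log2 fold change -0.05 with a 95% interval of -0.15 to 0.06, n = 3 each, limma adjusted p = 0.487). Its interval was the narrowest of the members, on 5502 to 6563 fragments per library. Fasn, fatty acid synthase, averaged 25.9 ± 1.7 FPKM in deletion and 24.9 ± 1.6 FPKM in control libraries (interval -0.12 to 0.22), and Acaca, the acetyl-CoA carboxylase that supplies it, averaged 5.30 ± 0.41 and 5.26 ± 0.45 FPKM in deletion and control libraries (interval -0.20 to 0.22). Acss2, which makes acetyl-CoA from acetate, averaged 11.5 ± 1.3 FPKM in deletion and 10.5 ± 0.15 FPKM in control libraries. Among elongases, Elovl1, for very long chains, averaged 30.8 and 31.7 FPKM and Elovl6, which extends palmitate, 3.82 and 3.62 FPKM in deletion and control libraries. Adjusted p-values of Fasn, Acaca, Acss2, Elovl1 and Elovl6 lay between 0.385 and 0.950.

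Beta-oxidation genes also gave 0 calls among 6 with limma, 2 at an unadjusted p under 0.05 and 1 call with voom. Acadm, the medium-chain acyl-CoA dehydrogenase, stood at 16.1, 15.1 and 16.4 FPKM in deletion and at 12.8, 14.3 and 13.9 FPKM in control libraries, with no overlap (log2 fold change 0.20, SE 0.066, limma adjusted p = 0.0897). Hadhb, a subunit of the mitochondrial trifunctional protein, stood at 17.9, 16.2 and 16.8 FPKM in deletion and at 20.03, 18.5 and 19.3 FPKM in control libraries, below them without overlap (log2 fold change -0.18, SE 0.062, adjusted p = 0.10). With voom on recovered fragments Hadhb fell (log2 fold change -0.27, adjusted p = 0.0365, with a range of 0.0365 to 0.249 over all alternatives). Acadl, the long-chain dehydrogenase, stood at 31.3, 32.0 and 30.8 FPKM in deletion and at 29.0, 27.3 and 30.5 FPKM in control libraries (log2 fold change 0.11, SE 0.058, adjusted p = 0.218). In FPKM, Acadm and Acadl thus lay above the controls and Hadhb below them, without passing the test with limma. With median-ratio scaling the log2 fold changes shrank to 0.12 for Acadm and 0.030 for Acadl (limma adjusted p = 0.272 and 0.777). Hadha, the other subunit of that protein, averaged 40.2 and 43.3 FPKM in deletion and control libraries, and was 2.26 to 2.49 times as abundant as Hadhb in deletion and 2.16 to 2.39 times in control libraries. Cpt1a, the gate for fatty acids into mitochondria, averaged 22.5 ± 2.6 FPKM in deletion and 23.6 ± 1.2 FPKM in control libraries (log2 interval -0.28 to 0.14), and the very long-chain dehydrogenase Acadvl averaged 23.9 and 23.8 FPKM in deletion and control libraries. Adjusted p-values of Hadha, Cpt1a and Acadvl lay between 0.298 and 0.945.

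Among the sterol enzymes single libraries stood out. Of the 15 enzymes from Hmgcs1 to Dhcr7, 9 (60.0%) were lowest in control library 2 among the controls, and 10 (66.7%) were highest in control library 3. Over all tested genes control library 2 was lowest for 31.4% and control library 3 highest for 34.8%. Among deletion libraries, 9 of the 15 enzymes (60.0%) were lowest in library 1, against 35.7% of all tested genes. Over all 38 tested members, control library 2 was lowest among the controls for 21 (55.3%) and control library 3 highest for 20 (52.6%). Sqle shows the order of the controls, at 7.17, 6.56 and 6.22 FPKM in deletion libraries 1, 2 and 3 and at 6.35, 5.83 and 7.23 FPKM in control libraries 1, 2 and 3. The groups of 18 of 38 tested members (47.4%) did not overlap, 15 of them higher and 3 lower in deletion libraries, against 39.1% of all tested genes (29.3% higher and 9.79% lower). These counts use FPKM without median-ratio scaling, whose factors were 1.028 to 1.038 in deletion and 0.9651 to 0.9822 in control libraries. With that scaling, members with a log2 fold change above 0 went from 27 to 18.

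**Figure D4:**
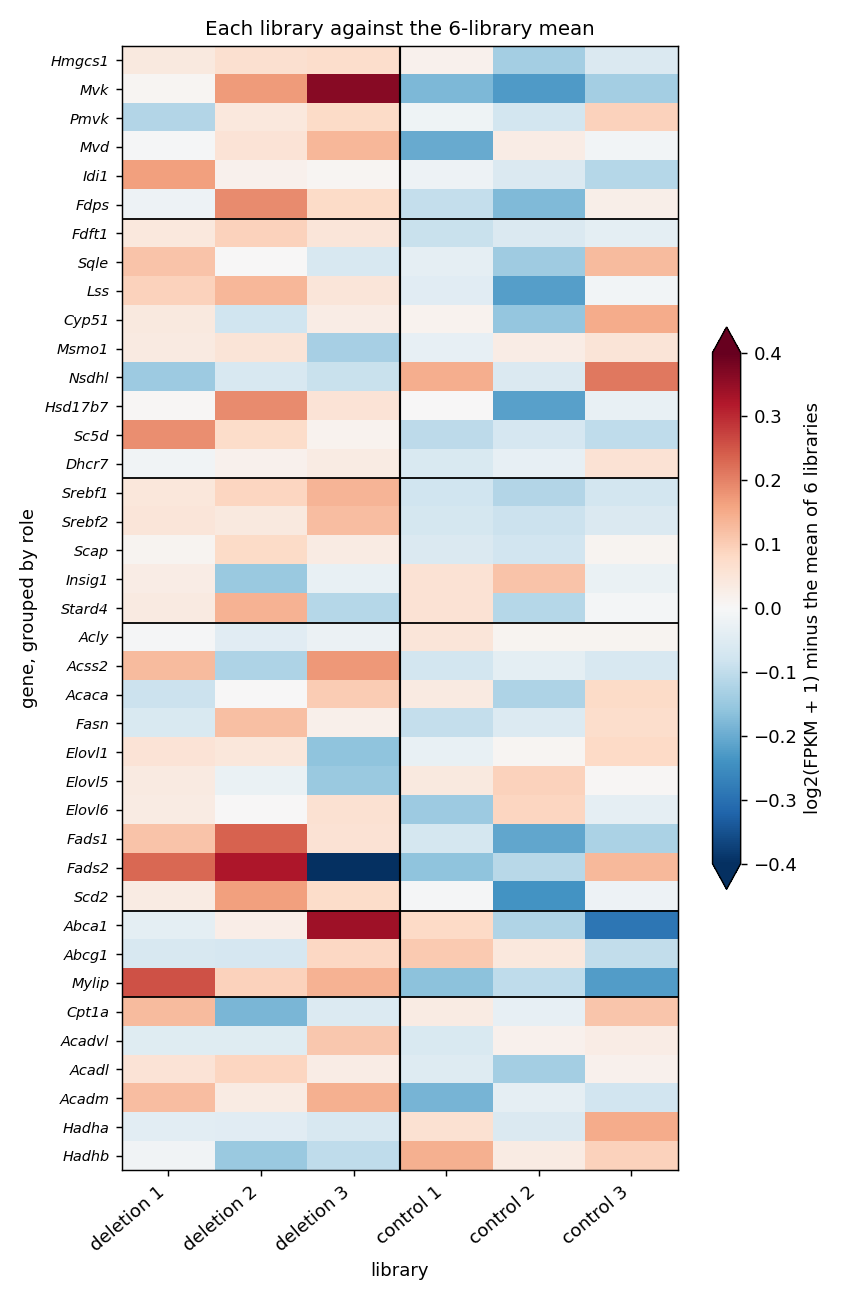
Log2(FPKM + 1) of each member minus its mean over the 6 libraries (colour scale from -0.4 to 0.4), with deletion libraries 1 to 3 left of control libraries 1 to 3 and members in rows by role. Mylip, Mvk, Srebf1 and Srebf2 are redder in each deletion library than in any control library, and 9 of the 15 sterol enzymes are lowest among the controls in control library 2.

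Further genes of these pathways, 84 in number and taken by function with earlier results of these data known, were read beside the members. Of 72 tested, 7 rose and 3 fell (13.9%, against 12.0% of all tested genes). At an unadjusted p under 0.05 with limma there were 31 (43.1%), against 32.6% of all tested genes. In sterol synthesis 1 of 14 rose and 0 fell (7.14%, against 12.0% of all tested genes). Insig2, a relative of Insig1 that also retains Scap, stood at 7.08, 6.77 and 6.78 FPKM in deletion and at 5.79, 5.57 and 5.44 FPKM in control libraries, without overlap (log2 fold change 0.26, SE 0.063, limma adjusted p = 0.0454). Its call was lost whichever library was left out (0.0649 to 0.126), with no filter or a 5 FPKM filter, with both scalings (up to 0.257) and with voom (0.137).

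In sterol transport 3 of 16 tested genes rose and 0 fell (18.8%, against 12.0% of all tested genes). Abca7, a lipid transporter of the same family as Abca1, averaged 47.2 ± 1.9 FPKM in deletion and 34.5 ± 2.4 FPKM in control libraries (log2 fold change 0.44, SE 0.065, limma adjusted p = 0.0104, n = 3 each). Abca2, which acts in lysosomes, averaged 35.4 ± 2.2 FPKM in deletion and 27.2 ± 0.61 FPKM in control libraries (log2 fold change 0.36, SE 0.061, adjusted p = 0.0161). Rxrb, which encodes a partner of liver X receptors, averaged 44.6 ± 2.0 FPKM in deletion and 37.9 ± 1.5 FPKM in control libraries (log2 fold change 0.23, SE 0.057, adjusted p = 0.0463). Abca7 lost its call without deletion library 3 (adjusted p = 0.0531), Abca2 without control library 1 or deletion library 2 or 3 (up to 0.0671), and Rxrb on leaving out control library 1 or 3 or any deletion library (up to 0.152), and with no filter, both scalings and voom. In beta-oxidation, 2 of 25 tested genes rose and 1 fell (12.0%, the same share as over all tested genes). The enoyl-CoA isomerase Eci1 averaged 25.2 and 20.8 FPKM (log2 fold change 0.26, adjusted p = 0.0264) and the peroxisomal oxidase Acox3 12.4 and 9.88 FPKM (0.30, adjusted p = 0.0482) in deletion and control libraries. Hsd17b10, a mitochondrial dehydrogenase, averaged 47.6 and 59.8 FPKM in deletion and control libraries (log2 fold change -0.32, adjusted p = 0.0196). The calls of Eci1 and Acox3 were lost with both scalings and with voom (adjusted p-values up to 0.135). They were also lost on leaving out control library 1 or any deletion library and, for Acox3, control library 3 (up to 0.141), and for Acox3 with no filter (0.0848). The call of Hsd17b10 was lost without control library 1 or deletion library 2 or 3 (up to 0.0828).

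Among the tested genes of these lists, the largest changes on the log2 scale were those of Scd1 and Acsl1. Both belong to the further genes of fatty acid synthesis, of which 7 of 24 were too low to be tested. Of 17 tested genes 1 rose and 2 fell (17.6%, against 12.0% of all tested genes). Mlycd, which breaks down malonyl-CoA, rose, at 7.64, 7.52 and 7.56 FPKM in deletion and 5.66, 5.84 and 5.37 FPKM in control libraries (log2 fold change 0.37, SE 0.063, limma adjusted p = 0.0162). Its call was lost without control library 1 or any deletion library (up to 0.0694) and with quantile normalization (0.0552). Scd1, the stearoyl-CoA desaturase of fat and liver, fell, at 1.42, 0.987 and 2.00 FPKM in deletion and 7.90, 14.2 and 11.4 FPKM in control libraries (log2 fold change -2.29, SE 0.22, adjusted p = 0.00262). Acsl1, which activates long-chain fatty acids, fell too, at 1.76, 2.20 and 2.09 FPKM in deletion and 3.74, 3.81 and 3.76 FPKM in control libraries (log2 fold change -0.66, SE 0.087, adjusted p = 0.00774). Both calls held whichever library was left out. The size for these low genes moved with the pseudocount, to -2.86 for Scd1 and -0.88 for Acsl1 with 0.1 and to -1.30 for Scd1 and -0.32 for Acsl1 with 5. Beside them, Dgat2, which makes triglycerides, a gene chosen after its values were seen, averaged 2.88 ± 0.41 FPKM in deletion and 4.51 ± 0.85 FPKM in control libraries (adjusted p = 0.0595). The summed level of 12 fat cell markers was lower in deletion libraries too, at 1.68 to 3.78 FPKM against 54.6 to 66.0 FPKM in control libraries, and its part in the falls of Scd1 and Acsl1 was not tested. The ratio of Scd2 to Scd1 was 20.9 to 45.2 in deletion and 2.35 to 5.004 in control libraries.

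**Figure D5:**
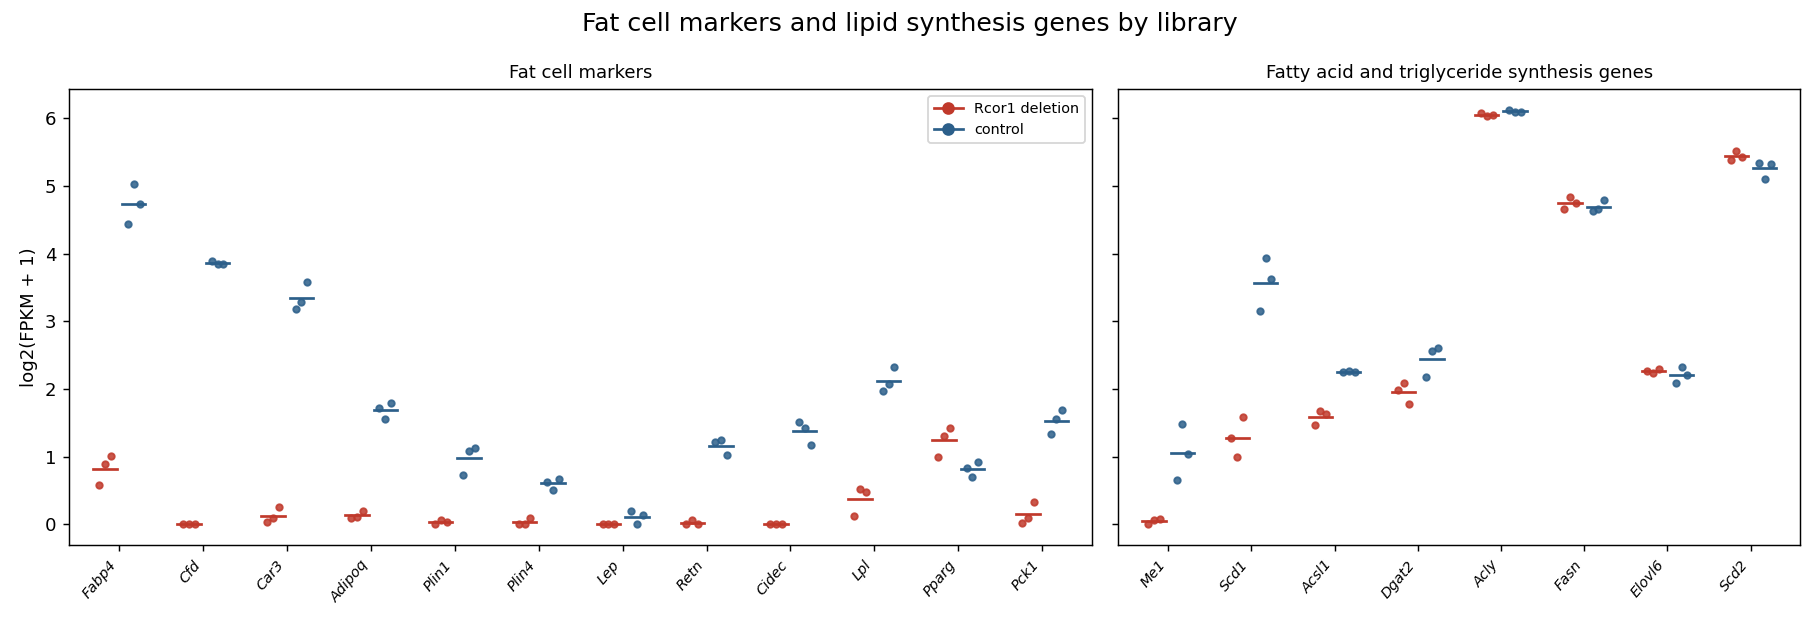
Log2(FPKM + 1) of 12 fat cell markers (left panel) and of 8 fatty acid and triglyceride synthesis genes (right panel) by library, with deletion libraries in red left of control libraries in blue and bars at group means. The markers other than Pparg, as well as Me1, Scd1, Acsl1 and Dgat2, are lower in every deletion library or, for Lep, at 0 there, while the group means of Acly, Fasn, Elovl6 and Scd2 lie close together.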

How the data were processed

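The authors deposited 1 table of FPKM values for 6 libraries, 1 column per sample, and 0 other columns were present. Per the submitters' processing notes, STAR, a read aligner, and mm10 were used, with no settings given. No source used here names the counter, its annotation release or its use of strand. Symbols, positions and lengths came from GENCODE M21 (GRCm38). In that annotation exons of Fdft1, Hmgcs1, Idi1, Lss, Cyp51, Scap, Srebf1, Acss2, Elovl1, Elovl6, Hadha and Acadvl overlap another gene on the opposite strand. Those of Fdps, Scd2 and Srebf1 overlap another gene on the same strand. Library totals and fragments were recovered from the FPKM values: 15336 of 21898 genes above 0 (70.0%) gave whole fragments within 0.01 with the longest annotated transcript, and 6562 with a solved length. Testing took the 11575 genes that reached 1 FPKM in 3 or more libraries, and was done with limma 3.58.1 (R 4.3.3) on log2(FPKM + 1), with a variance trend, two-sided, at a Benjamini-Hochberg adjusted p under 0.05. Fold changes are deletion over control on that scale, which understates changes of low genes. The fits were tested on simulated fragments. Members and lists were chosen with earlier results of these data known. A further 785 identifiers had no symbol, and 1 gene was left out of the further lists and their counts and is not reported here. All members were named, with values of each library for those past the threshold and up to 3 per role with the smallest p, and up to 4 called genes per further list. Fads2 and Sqle were also given by library. Alternatives were each library left out, a block for replicate number, a pseudocount of 0.1 or 5, other filters, 2 scalings, and voom.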

Additional observations from a re-analysis of the deposited data

How the results depend on the processing

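Among 11575 tested genes, 1392 changed. This became 404 with the replicate block, 844 with no filter on low values, 868 with quantile normalization and 336 to 1942 with each library left out. The number of members changed, 1 of 38, became 0 with the replicate block, median-ratio scaling and quantile normalization, and 0 to 2 with each library left out. Members that rose were 0 under the same settings and with voom on recovered fragments, and 0 to 1 with each library left out. Members that fell numbered 1 with voom (Hadhb) and 0 to 1 with each library left out. Further pathway genes changed, 10 of 72, became 2 with the replicate block (Scd1 and Acsl1), which ended the calls of Insig2, Mlycd, Abca7, Abca2, Rxrb, Eci1, Acox3 and Hsd17b10 (adjusted p = 0.0534 to 0.126), and 2 to 15 with each library left out. Rcor1 passed with a 5 FPKM filter (log2 fold change -0.24, adjusted p = 0.0492), median-ratio scaling (-0.32, 0.0289), quantile normalization (-0.33, 0.0314) and voom (-0.35, 0.0166), and ranged from -0.29 to -0.20 with each library left out. Mylip kept its direction but not its call with the replicate block (0.32), median-ratio scaling (0.24), quantile normalization (0.24), voom (0.26) and each library left out other than control library 2 (range over all 6, 0.28 to 0.36). The labels number the replicates but give no pairing. Deviations of same-numbered libraries correlated at 0.211, -0.135 and -0.162, and with 3 libraries per group these values cannot settle whether the libraries were paired.

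Small changes of uncalled members switched sign. With median-ratio scaling, quantile normalization and voom, in that order, the log2 fold changes were -0.080, -0.093 and -0.087 for Pmvk, -0.039, -0.090 and -0.040 for Sqle, -0.057, -0.063 and -0.060 for Dhcr7, -0.037, -0.070 and -0.041 for Stard4, -0.063, -0.11 and -0.075 for Acaca, -0.029, -0.022 and -0.031 for Fasn, -0.0044, -0.061 and -0.0040 for Elovl6 and -0.075, -0.069 and -0.078 for Acadvl. Scap stood at -0.0021 with median-ratio scaling and -0.0020 with voom. Median-ratio scaling moved the median of all tested genes by -0.076. With each library left out the ranges were -0.038 to 0.059 for Pmvk, -0.027 to 0.11 for Sqle, -0.085 to 0.067 for Cyp51, -0.065 to 0.027 for Msmo1, -0.00011 to 0.059 for Dhcr7, -0.018 to 0.11 for Stard4, -0.050 to 0.055 for Acaca, -0.077 to 0.031 for Elovl1, -0.090 to 0.012 for Abcg1 and -0.044 to 0.035 for Acadvl. The cause was not tested. With 3 libraries per group, an exact permutation test of 1 gene could not go below p = 0.1. Fragment numbers limit Fads2 most among the members.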

Other observations

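Of the 84 further pathway genes, 12 were under the limit for testing. Nr1h3, which encodes the liver X receptor alpha, stood at 0.631, 1.19 and 2.04 FPKM in deletion and at 0.684, 0.608 and 0.707 FPKM in control libraries, whereas Nr1h2, the beta form, averaged 67.9 ± 2.1 FPKM in deletion and 58.8 ± 4.7 FPKM in control libraries (limma adjusted p = 0.0892, n = 3 each). Me1, malic enzyme, stood at 0, 0.0448 and 0.0600 FPKM in deletion and at 0.575, 1.79 and 1.05 FPKM in control libraries, without overlap. Ppara was at 0 in all deletion libraries and in 2 of 3 control libraries. These 4 genes were chosen after their values were seen.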
